A study of Mus musculus with 53 samples.

Results

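The comparison described here is the step from day 2 to day 4 after hormones in NIH-3T3 cells carrying PPARg2. It was taken from the array titles as 7 PPARg d4 arrays against 4 PPARg d2 arrays, 11 of the 53 arrays of the series. NIH-3T3 is a mouse embryonic fibroblast line. Every culture in the series had been transduced with a vector that was empty or carried EBF1 or PPARg2. Every culture sampled after day 0 had received hormones to start adipocyte differentiation. The sources used here name neither the vector, nor the promoter that drives the insert, nor the hormones. RNA was taken with TriZol at day 0, 2, 4 or 10 and read on Affymetrix MG_U74Av2 arrays. The changes over the same days in cells with the empty vector (4 d2 and 7 d4 arrays) and in cells with EBF1 (4 d2 and 7 d4 arrays) are given beside those of the PPARg2 cells. The labels mention 7 stimulation experiments but do not say which arrays came from which, so the p-values below measure the spread between arrays.

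PPARg (Pparg) is a nuclear receptor that binds DNA together with the retinoid X receptors and switches on genes for fatty acid uptake, lipid droplets and adipocyte hormones. PPARg2 is the isoform made mainly in fat cells. In fibroblast lines given adipogenic hormones, C/EBPb and C/EBPd appear early, the cells may divide again, and PPARg and C/EBPa then drive the lipid-laden state, in which mitochondria are also built up.

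Intensities are on the linear scale of the deposited table. For the tests they were raised to a floor of 54.5, the pooled 20th percentile, and turned into log2, so that a log2 change of 1 is a 2-fold change; errors of log2 changes are standard errors (SE). Between day 2 and day 4, 3890 of 10863 probe sets (35.8%) passed an adjusted p of 0.05, 1540 higher and 2350 lower at day 4. Without d2 replicate 4 the count was 2067, 1072 higher and 995 lower, and without d4 replicate 7 it was 2568, 1282 higher and 1286 lower. Session 1 alone gave 1031 higher and 963 lower and session 2 alone 320 and 78, so the balance of rises and falls rests on the arrays used. Taken as 1 probe set per gene, 1170 of 7641 genes rose (15.3%) and 1648 fell (21.6%), and the median log2 change over all genes was -0.07. The larger changes were mostly rises: 162 probe sets rose at least 2-fold and 15 fell at least 2-fold. Many of the falls were small and in dim probe sets. Among probe sets with a mean above the pooled median of 158, 1297 rose and 1274 fell, and among the dimmer ones 243 rose and 1076 fell. The 20th percentile of the arrays, which lay at 57.2 to 59.9 at day 2, lay at 47.8 to 55.8 at day 4, and its part in the small falls was not tested. The ratio of 3' to 5' actin signals ran from 1.16 to 1.35 at day 2 and from 1.15 to 1.42 at day 4.

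The dates in the array files fall into 3 sessions. Session 1 holds d2 replicates 1 and 2 and d4 replicates 1 and 2, and session 2 holds replicates 3 and 4 of both days. Session 3 holds d4 replicates 5, 6 and 7 together with all PPARg d10 arrays. No single date is shared by the d2 and d4 arrays, so at the level of single dates, date and day cannot be told apart. Within sessions 1 and 2 both days are present, and changes within each are given below for some genes only. Among 102 called genes given with full statistics, 10 lost the call in session 1 alone and 24 in session 2 alone. These sessions have fewer arrays.

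Several genes known from fat cells were among the largest rises. Adipoq encodes adiponectin, a hormone of fat cells. Its intensity was 90.6, 89.7, 62.2 and 72.9 on the 4 d2 arrays and 1773 to 2829.8 (median 2445) on the 7 d4 arrays. No d4 array came near a d2 array, and the log2 change was 4.91 ± 0.21 (adjusted p = 1.4e-22). At day 10 it stood at 6427 ± 207 (SD, n = 3), all in session 3. Cidec, a protein of the lipid droplet surface that helps droplets fuse, read 316, 326, 261 and 252 at day 2 and 1623 to 3213 (median 2169) at day 4. Every d4 array lay above every d2 array, with a log2 change of 2.92 ± 0.16 (adjusted p = 5e-19). Lipe, hormone-sensitive lipase, went from 359, 339, 279.6 and 246 to values of 1206 to 1698 (median 1366). This was a log2 change of 2.19 ± 0.16 (adjusted p = 1.9e-14), again with no overlap between the days. G0s2, an inhibitor of the main triglyceride lipase of fat cells, rose by 2.50 ± 0.24 (adjusted p = 5.4e-11) and Cavin2, a coat protein of caveolae, by 2.08 ± 0.16 (adjusted p = 1.4e-13).

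Sult1a1, a sulfotransferase that acts on phenols, did not exceed the floor on any of the 4 d2 arrays (38.7, 36.5, 25.6 and 29.1) and read 514 to 809 (median 651) at day 4. Against the floor, this is at least 11.9-fold higher (adjusted p = 1.6e-18). Its level at day 10 was 173 ± 76.9 (SD, n = 3), below each d4 array. The 12 largest rises among genes without overlap between the days also held Reep6, a protein of the endoplasmic reticulum membrane, at 3.40 ± 0.21 (adjusted p = 7.2e-17), and Prxl2a, of the peroxiredoxin-like family, at 3.17 ± 0.22 (adjusted p = 6.7e-15). The aldehyde dehydrogenase Aldh1a7 rose by 2.60 ± 0.22 (adjusted p = 2.6e-12). Thrsp, which promotes lipid synthesis, rose by 2.43 ± 0.25 (adjusted p = 3.2e-10). The cholesterol enzyme gene Fdps, described below, rose by 2.38 ± 0.25 (adjusted p = 1e-09) and Pqlc3 by 2.14 ± 0.13 (adjusted p = 5.3e-17). A second probe set for Prxl2a did not rise (-0.38, adjusted p = 0.086).

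**Figure D1:**
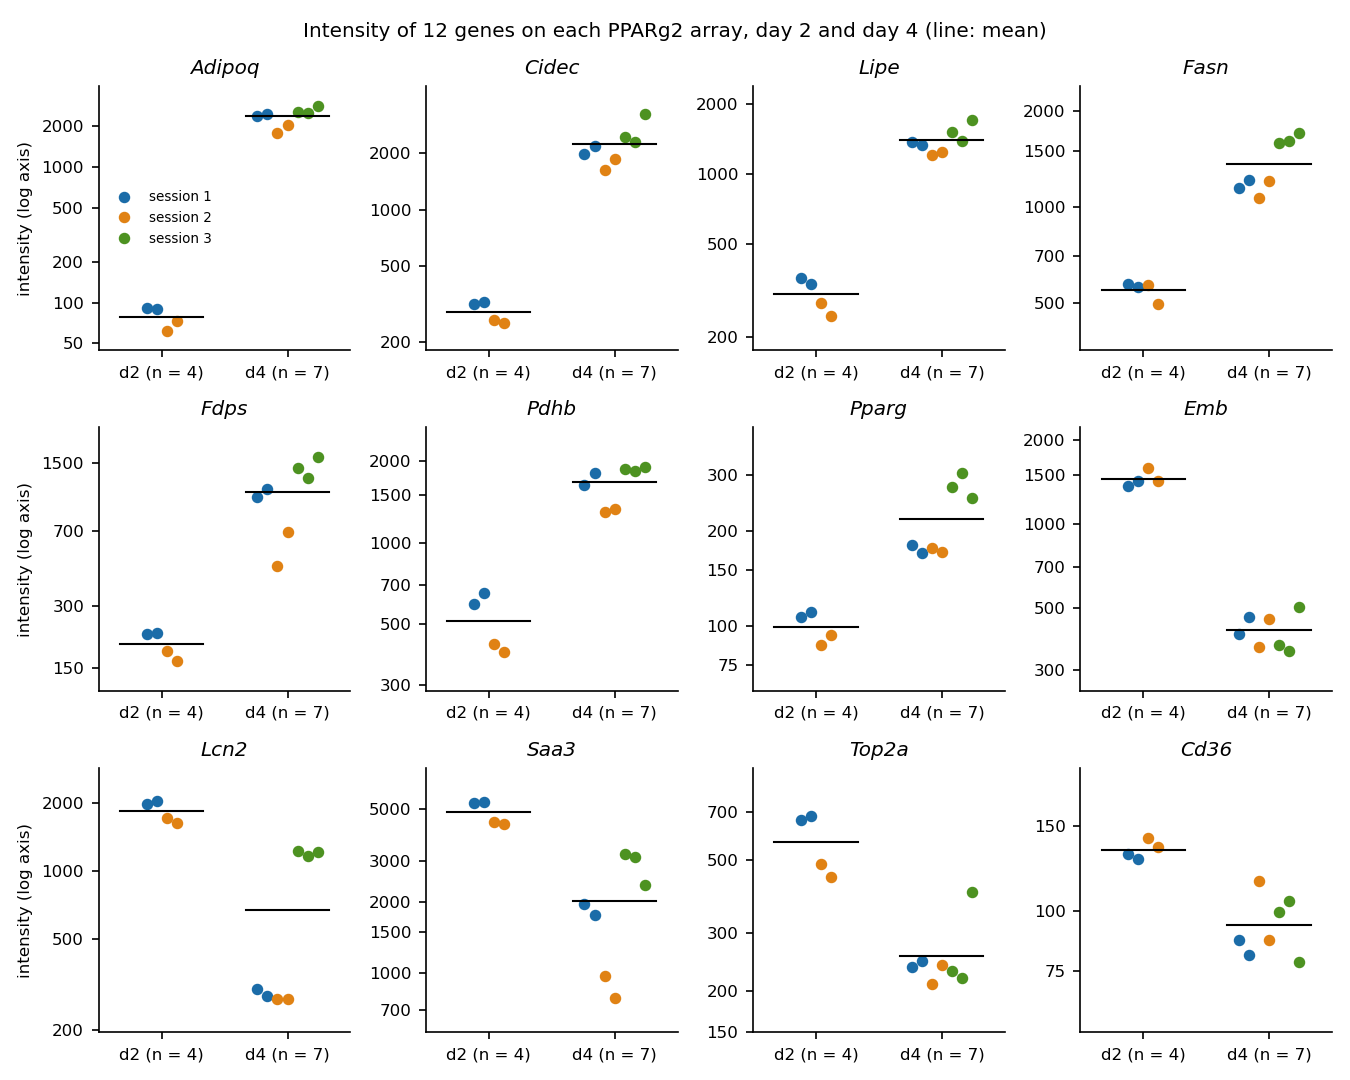
Intensity of 12 genes on each PPARg d2 and d4 array, on a log axis, with points coloured by session of the array files and 1 panel per gene. Adipoq sits between 62.2 and 90.6 at day 2 and between 1773 and 2830 at day 4. Lcn2 splits at day 4 into 4 arrays of sessions 1 and 2 at 272 to 304 and 3 arrays of session 3 at 1169 to 1228.

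Of the 8 adipocyte markers with a tested probe set, 5 rose (Adipoq, Fabp4, Lpl, Pparg and Retn) and Cebpa did not pass the test. The fatty acid binding protein Fabp4 read 136, 80.4, 59.8 and 47.4 at day 2 and 122 to 686 (median 524) at day 4. Its arrays overlap, since d4 replicate 4 at 122 lay below d2 replicate 1, and the log2 change was 2.41 ± 0.33 (adjusted p = 3e-07). Lipoprotein lipase, Lpl, which frees fatty acids for uptake, rose from 1589, 1496, 1427 and 1372 to 3895 to 4359 (median 4244), by 1.51 ± 0.12 (adjusted p = 7.1e-14). Resistin, Retn, rose from 934, 821, 702 and 759 to 1428 to 1934 (median 1646), by 1.06 ± 0.14 (adjusted p = 8.7e-08), and at day 10 it was 387 ± 69.8 (SD, n = 3). The markers thus did not all move one way. The fatty acid transporter Cd36 read 131, 128, 141 and 136 at day 2 and 78.1 to 116 (median 87) at day 4 and fell by 0.54 ± 0.17 (adjusted p = 0.017). Leptin, Lep, read 727, 726, 729.6 and 745 at day 2 and 445 to 697 (median 482) at day 4, a log2 change of -0.42 ± 0.15 (adjusted p = 0.029). Leaving out any d2 array, or d4 replicate 1, 2, 4 or 7, ended the call for Lep on this probe set, so that 1 marker of the list was left as lower. That marker, Cd36, lost its call in session 1 alone and in session 2 alone, which have fewer arrays. A second Lep probe set, at 393 and then 321, was also called lower (-0.29, adjusted p = 0.021). In RNA from whole cultures, fewer cells of a type and less RNA per cell cannot be told apart.

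Pparg itself was 106, 111, 86.6 and 93 at day 2 and 169.9 to 304 (median 179.7) at day 4, a rise of 1.11 ± 0.15 (adjusted p = 2e-07). The 4 d4 arrays of sessions 1 and 2 lay at 170 to 180 and the 3 of session 3 at 254 to 304. Within sessions 1 and 2 the changes were 0.69 and 0.95. The sources used here do not say whether this probe set also reads the transcript of the vector. Over the same days Pparg changed by 0.29 in vector cells and by 1.51 in EBF1 cells. Nr1h3, the liver X receptor alpha, rose by 0.83 ± 0.10 (adjusted p = 9.8e-09), and Srebf1, which switches on lipid synthesis, rose by 0.38 ± 0.09 (adjusted p = 0.0026). Of the early factors, Cebpd fell by 0.53 ± 0.17 (adjusted p = 0.014), a call that ended without d2 replicate 3. Cebpb was 1478 ± 132 at day 2 and 1678 ± 213 at day 4 (SD, n = 4 and 7; adjusted p = 0.42). Cebpa, with 156 ± 14.5 and 129 ± 22.2 (adjusted p = 0.21), did not pass the test. Neither did Rxra (log2 change 0.13, adjusted p = 0.2), the preadipocyte protein Dlk1 (0.04, adjusted p = 0.83) or Ebf1 (0.33, adjusted p = 0.084). Over all genes 15.3% rose and 21.6% fell. Of 24 adipogenic transcription factors and receptors, 4 rose (16.7%) and 4 fell (16.7%), with a median of -0.01. The 4 falls were 2 without d2 replicate 3 and 1 without d2 replicate 4.

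Most of the listed lipid genes rose. Of 25 genes for fatty acid uptake, storage and lipid droplets, 15 rose (60%, beside 15.3% of all genes). The list median was 0.58 beside -0.07 over all genes. Gpd1, which makes glycerol 3-phosphate for triglycerides, rose by 1.64, the droplet coat genes Plin4 and Plin2 by 1.48 and 0.74, and Fabp5 by 1.29. In the full set of arrays 3 members fell, namely Cd36, the triglyceride synthase Dgat1 (-0.63) and the monoglyceride lipase Mgll (-0.30). Of these 3 falls 1 was called without d2 replicate 3 or without d4 replicate 7. Of 13 genes of fatty acid synthesis, 8 rose (61.5%), with a median of 0.58. In limma 0 of them were called lower, also 0 at an unadjusted p under 0.05. The fatty acid synthase Fasn read 570.5, 561, 566 and 495 at day 2 and 1068 to 1710.3 (median 1213) at day 4, a rise of 1.29 ± 0.10 (adjusted p = 4e-13). Slc25a1, which carries citrate out of mitochondria, rose by 1.70 ± 0.15 (adjusted p = 2e-12). Acly, which splits that citrate, rose by 1.21 ± 0.16 (adjusted p = 1.2e-07) and the malic enzyme Me1 by 1.10. The desaturase Scd1 rose by less, from 677 ± 53.1 to 1185 ± 199 (SD, n = 4 and 7, adjusted p = 0.00032). On the d10 arrays it stood at 6548 ± 291 (SD, n = 3). Another Scd1 probe set rose by 0.94 (adjusted p = 2e-05), and a further probe set did not pass (0.21, adjusted p = 0.69).

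Genes for burning fatty acids rose alongside those for making them. The list of fatty acid oxidation and peroxisomes had 25 rises (78.1%) and 2 falls (6.25%) among its 32 genes, with a median of 0.79. Of all genes 15.3% rose and 21.6% fell. Acadm, which starts the oxidation of medium-chain fatty acids, went from 1380.0, 1535, 1219.5 and 1269 to 3345 to 4410.3 (median 3736), a rise of 1.50 ± 0.11 (adjusted p = 3.6e-14) with no overlap. Etfa, which passes on the electrons, rose by 1.48 ± 0.17 (adjusted p = 4.1e-09). The peroxisomal thiolase Acaa1a rose by 1.48 ± 0.21 (adjusted p = 6.1e-07) and the mitochondrial Acaa2 by 1.34. The 2 members that fell act at control points. Cpt1a, which admits fatty acids into mitochondria, fell from 876, 793, 1225 and 1044 to 485 to 706 (median 633), by 0.70 ± 0.12 (adjusted p = 3.1e-05). Pdk4, a kinase that shuts off pyruvate dehydrogenase, read 837, 771, 1315 and 1245 at day 2 and 416 to 884 (median 618) at day 4 and fell by 0.76 ± 0.20 (adjusted p = 0.0052). Its arrays overlap across sessions but not within sessions 1 and 2, where the changes were -0.37 and -0.59.

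Of 35 genes of the citrate cycle, pyruvate oxidation and the breakdown of branched-chain amino acids, 28 rose (80%), beside 15.3% of all genes. The list median was 0.81. Pdhb, a subunit of pyruvate dehydrogenase, read 592, 653, 423 and 396 at day 2 and 1292 to 1906 (median 1813) at day 4, a rise of 1.71 ± 0.18 (adjusted p = 3.2e-10). Bcat2, which starts the breakdown of leucine, isoleucine and valine in mitochondria, rose from 73.3, 75.5, 66.7 and 65.4 to 239.6 to 352 (median 282), by 2.04 ± 0.15 (adjusted p = 2e-14). These groups of arrays did not overlap. Further down that route Bckdhb rose by 1.38, Hibadh by 1.28 and Hibch by 1.00. In the citrate cycle Sdhb rose by 1.34, Suclg1 by 1.25 and citrate synthase, Cs, by 0.92. Dlat, the acetyltransferase of pyruvate dehydrogenase, rose by 1.40 ± 0.18 (adjusted p = 5.4e-08) on its brighter probe set, while a second probe set fell by 0.62 (adjusted p = 0.0072). Mdh1, the cytosolic malate dehydrogenase, was called lower (-0.31), a call kept when d4 replicate 3, 5 or 6 was left out and lost without each of the other 8 arrays.

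**Figure D2:**
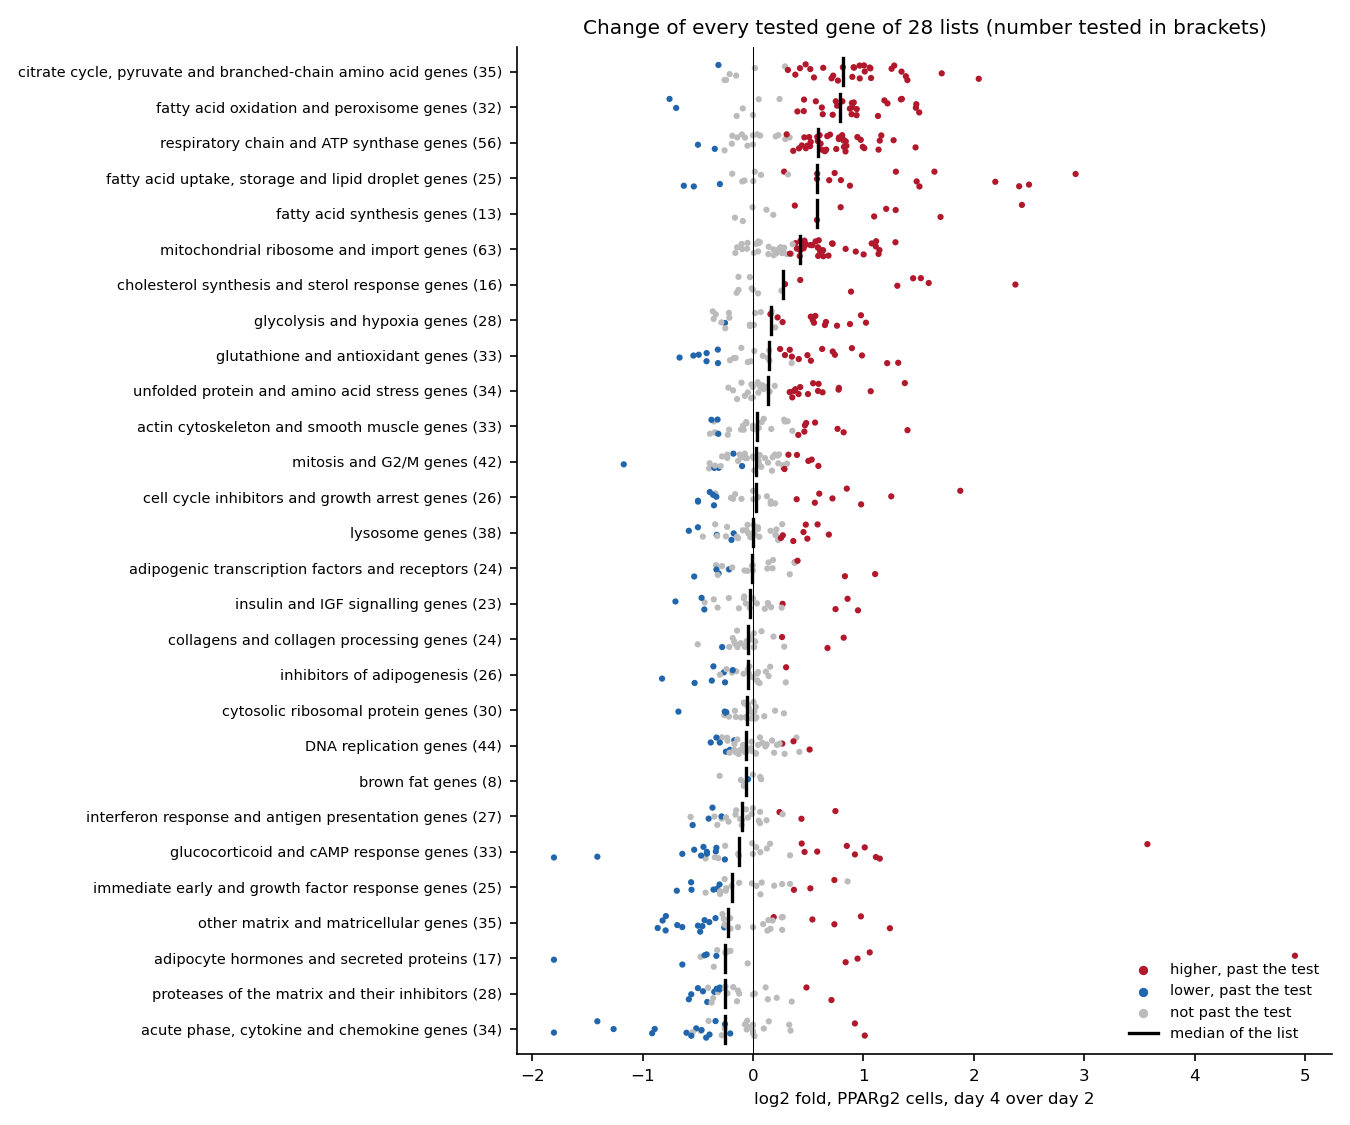
Log2 change from day 2 to day 4 in PPARg2 cells for each tested gene of 28 gene lists, 1 point per gene, with the list median marked. The lists of fatty acid oxidation, the citrate cycle, the respiratory chain and lipid storage have medians of 0.79, 0.81, 0.58 and 0.58, and the acute phase list one of -0.25.

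Of 56 genes of the respiratory chain and ATP synthase, 39 rose (69.6%, beside 15.3% of all genes), with a median of 0.58. The rises included subunits of complexes I, III and IV and of ATP synthase. In complex I Ndufs3 rose by 1.16 ± 0.15 (adjusted p = 9.8e-08) and Ndufb8 by 1.15 ± 0.17 (adjusted p = 8.2e-07). In complex III Uqcr11 rose by 1.47 ± 0.21 (adjusted p = 7.8e-07). In complex IV Cox7b rose by 0.82, and in ATP synthase Atp5d by 0.85. Cytochrome c, Cycs, which carries electrons between complexes III and IV, read 746, 662, 585 and 531 at day 2 and 983 to 2008 (median 1638) at day 4, a rise of 1.27 ± 0.17 (adjusted p = 1.9e-07). Cox6b1 and Atp5g1 were called lower (-0.35 and -0.50). Without d2 replicate 4 or d4 replicate 2 or 7 none of the list was, and 1 was without d2 replicate 1 or 3 or d4 replicate 4. Of 63 genes of the mitochondrial ribosome, import and carriers, 36 rose (57.1%), with a median of 0.43. In limma 0 of them were called lower (1 at an unadjusted p under 0.05). Without d2 replicate 3 or without d4 replicate 6 there was 1 fall. Mrpl12, of the large mitochondrial subunit, rose by 1.15 ± 0.16 (adjusted p = 5.9e-07), and the dicarboxylate carrier Slc25a10 by 1.29 ± 0.11 (adjusted p = 6.5e-13). The elongation factor Tufm rose by 1.14 ± 0.13 (adjusted p = 6.4e-09) on 1 probe set and fell by 0.43 (adjusted p = 0.031) on another.

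The promoter of Cycs is shown because the respiratory chain list held the core of the nuclear respiratory factor 1 motif (letters GCGCATGCG on either strand) more often than all tested genes did. It covers 250 bases before to 50 after the start of the gene as RefSeq places it, chr6:50566520-50566819 on the minus strand of GRCm38.p6, 5' to 3'. Capitals mark the motif at position 190 and a CCAAT box at position 220, counted from 1 at the left end.
Cycs: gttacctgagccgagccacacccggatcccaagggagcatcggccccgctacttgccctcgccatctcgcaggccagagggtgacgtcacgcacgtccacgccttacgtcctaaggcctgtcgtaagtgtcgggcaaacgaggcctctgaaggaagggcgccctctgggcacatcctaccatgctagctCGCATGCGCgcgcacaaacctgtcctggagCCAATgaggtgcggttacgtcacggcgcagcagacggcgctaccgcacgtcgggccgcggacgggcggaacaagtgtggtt
These letters were in 8 of 45 respiratory chain genes with a promoter sequence (17.8%), in 222 of 6094 tested genes (3.64%) and in 1.95% of all 27025 promoters in the table. Some lists without a general rise were above 3.64% too: 4 of 33 mitosis genes (12.1%), 2 of 20 adipogenic factors (10%) and 3 of 40 DNA replication genes (7.5%). In the acute phase list it was 0 of 25. These are matches of letters in a window of 300 bases, and no binding was measured.

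Cholesterol synthesis is fed by the same cytosolic acetyl-CoA as fatty acid synthesis. Of 16 genes of this route and the sterol response, 8 rose (50%, beside 15.3% of all genes). In limma 0 of them were called lower, also 0 at an unadjusted p under 0.05. The list median of 0.27 lay below those of the lipid and mitochondrial lists. Fdps, which makes farnesyl diphosphate, read 219, 223, 182 and 161 at day 2 and 470.0 to 1602 (median 1117) at day 4. The lowest of the latter were in session 2 (470.0 and 689) and the highest in session 3 (1270.3 to 1602). All d4 arrays nevertheless lay above all d2 arrays, with the change of 2.38 given above. A further Fdps probe set rose by 2.00 (adjusted p = 5.9e-10) and another, at 139 and then 99.4, fell by 0.50 (adjusted p = 0.025). Hmgcs1, which makes the precursor of mevalonate, rose from 193, 212, 177 and 178 to 429.7 to 681 (median 508), by 1.52 ± 0.15 (adjusted p = 8.3e-11). The isomerase Idi1 rose by 1.59 ± 0.18 (adjusted p = 6.8e-09) and the sterol demethylase Cyp51 by 1.45 ± 0.20 (adjusted p = 5.4e-07). These genes had been higher before the hormones: on the d0 arrays Fdps stood at 3424 ± 123, Hmgcs1 at 1270.3 ± 68.5 and Idi1 at 1269.7 ± 213 (SD, n = 4). Day 2 was thus a low point and day 4 lay between the levels at day 0 and day 2. The other 8 members, among them Mvk, Mvd and Fdft1, lay between -0.15 and 0.26 and did not pass the test.

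The promoters of Hmgcs1 and Idi1 are shown because all 13 genes of the cholesterol list with a promoter sequence held a CCAAT box (letters CCAAT on either strand). They are RefSeq windows of the same 300 bases on the plus strand of GRCm38.p6, chr13:119690101-119690400 and chr13:8885356-8885655, 5' to 3'. In Hmgcs1 the capitals mark CCAAT boxes at positions 14, 75, 206 and 261 and a sterol response element (TCACNCCAC on either strand) at 114. In Idi1 they mark CCAAT boxes at 206 and 237. None of these matches overlap.
Hmgcs1: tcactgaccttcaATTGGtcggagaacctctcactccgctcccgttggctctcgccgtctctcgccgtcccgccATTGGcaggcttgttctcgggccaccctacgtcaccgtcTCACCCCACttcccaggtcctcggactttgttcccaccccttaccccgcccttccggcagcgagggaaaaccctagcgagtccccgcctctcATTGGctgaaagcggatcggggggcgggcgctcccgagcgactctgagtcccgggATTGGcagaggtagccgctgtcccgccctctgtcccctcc
Idi1: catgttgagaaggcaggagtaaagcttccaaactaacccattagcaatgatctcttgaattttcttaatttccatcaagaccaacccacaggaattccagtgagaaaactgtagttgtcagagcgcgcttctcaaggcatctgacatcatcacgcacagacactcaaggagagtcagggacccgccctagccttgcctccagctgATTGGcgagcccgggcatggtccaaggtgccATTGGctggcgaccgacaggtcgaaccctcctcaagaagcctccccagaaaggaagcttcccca
The CCAAT letters were in 42.6% of the 6094 tested genes with a promoter and in 41.1% of all 27025. Other lists held them often too: 9 of 10 fatty acid synthesis genes, 26 of 33 mitosis genes and 22 of 31 unfolded protein genes. In the acute phase list it was 6 of 25. Of the 13 cholesterol genes, 6 were among those that rose, and the others held the box as well. The sterol element was in 1 of the 13 genes (7.69%) and in 1.64% of those tested. The direct repeat that PPARg and its partner bind (AGGTCANAGGTCA, either strand) was found in 1 of the 6094 windows.

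Other metabolic and stress genes rose in part. Of 28 genes of glycolysis and the hypoxia response, 13 rose (46.4%, beside 15.3% of all genes), with a median of 0.16. Aldolase A, Aldoa, rose from 3112, 3430.3, 3086 and 2689 to 5206 to 6173 (median 5592), by 0.88 ± 0.08 (adjusted p = 5.1e-12). Phosphoglycerate mutase, Pgam1, rose by 0.76 ± 0.11 (adjusted p = 9e-07). The lactate dehydrogenase subunit Ldhb rose by 1.02 ± 0.20 (adjusted p = 0.00013) and the mitophagy receptor Bnip3 by 0.98 ± 0.16 (adjusted p = 1.4e-05). Of 34 genes of the unfolded protein and amino acid stress responses, 15 rose (44.1%), with a median of 0.13. In limma 0 were called lower, also 0 at an unadjusted p under 0.05. Without d2 replicate 4 the rises were 10. Within session 1 alone 7 rose and 1 fell, and within session 2 alone 2 rose, with fewer arrays in each. The 15 include Psat1, an enzyme of serine synthesis, at 1.38 ± 0.17 (adjusted p = 3.2e-08). Dnajb9, a chaperone of the endoplasmic reticulum, rose by 1.07 ± 0.16 (adjusted p = 1.3e-06) and the glycyl-tRNA synthetase Gars by 0.78 ± 0.14 (adjusted p = 6.5e-05). Hspa5, the main chaperone of that compartment, was at 0.11 and did not pass. Among 33 glutathione and antioxidant genes 14 rose (42.4%), led by the glutathione transferase Mgst3 (1.31 ± 0.16, adjusted p = 2e-08). Another 7 fell (21.2%, beside 21.6% of all genes), led by the peroxiredoxin Prdx4, which fell by 0.66 ± 0.18 (adjusted p = 0.0058). Without d2 replicate 4 the falls were 4. Sod1, the cytosolic superoxide dismutase, rose by 0.99 ± 0.23 (adjusted p = 0.0016). It read 1049 to 1220 on the d4 arrays of sessions 1 and 2 and 1889 to 1947 on those of session 3.

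Of 33 glucocorticoid and cAMP response genes, 9 rose (27.3%) and 11 fell (33.3%), beside 15.3% and 21.6% of all genes. The falls of the list were 7 without d2 replicate 3 or without d2 replicate 4. Sgk1, a kinase induced by glucocorticoids, rose from 383, 430.2, 495 and 459 to 752 to 1219 (median 914), by 1.11 ± 0.18 (adjusted p = 6.5e-06). Ddit4, an inhibitor of mTOR signalling, rose by 1.15 ± 0.12 (adjusted p = 3.6e-10). The falls of the list included Mt2 (-0.45), Mt1 (-0.42), Glul (-0.34) and Tsc22d3 (-0.25). Lcn2, Saa3, Serpina3n, Angptl4 and Cebpd were also among its falls, and Lcn2 and Saa3 are in the acute phase list too. Among secreted proteins of fat cells, angiotensinogen, Agt, rose by 0.84 ± 0.14 (adjusted p = 1.5e-05) and Nampt, an enzyme of NAD synthesis that is also secreted, by 0.95 ± 0.08 (adjusted p = 7.9e-12). Angptl4, an inhibitor of lipoprotein lipase, read 1764, 1873, 1591 and 1540.0 at day 2 and 1197 to 1510.4 (median 1318) at day 4. The change of -0.33 (adjusted p = 0.042) lost its call without any d2 array or without d4 replicate 3, 5, 6 or 7. Another Angptl4 probe set was called lower (-0.29, adjusted p = 0.024) and a further one did not pass (-0.34, adjusted p = 0.075). Akt2, a kinase of insulin signalling, rose by 0.86 ± 0.11 (adjusted p = 4.7e-08), and the binding protein Igfbp4 fell by 0.70 ± 0.09 (adjusted p = 2.2e-08). The serpin Serpina3n fell by 0.64.

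The falls of at least 2-fold are few and include acute phase proteins and receptors. Emb, embigin, a partner of lactate transporters, read 1369, 1424, 1588 and 1431 at day 2 and 353 to 505 (median 405) at day 4, a fall of 1.81 ± 0.15 (adjusted p = 1.1e-12) with no overlap. Lcn2, lipocalin 2, an iron-sequestering acute phase protein, read 1978, 2033, 1718 and 1631 at day 2. At day 4 it read 272 to 304 on the 4 arrays of sessions 1 and 2 and 1169 to 1228 on the 3 arrays of session 3. The pooled fall was 1.80 ± 0.40 (adjusted p = 0.00086), and within sessions 1 and 2 it changed by -2.78 (adjusted p = 1.7e-07) and -2.62 (adjusted p = 3.4e-06). The serum amyloid gene Saa3 showed the same split, from 5268, 5320.2, 4408 and 4326 at day 2 to 785 to 1974 in sessions 1 and 2 and 2376 to 3227 in session 3. The pooled fall was 1.41 ± 0.27 (adjusted p = 0.00012), with changes of -1.50 and -2.32 within sessions. Saa2 fell by 1.26 ± 0.30 (adjusted p = 0.0014) and within sessions changed by -1.67 and -1.87. A second Saa2 probe set, at 158.5 and then 135.7, did not pass the test (-0.22, adjusted p = 0.12).

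The angiotensin receptor Agtr2 read 516, 532, 525 and 508 at day 2 and 83.3 to 236 (median 212) at day 4. Here the 3 arrays of session 3 were the low ones, at 83.3 to 106. The pooled fall was 1.76 ± 0.29 (adjusted p = 8.1e-06) and the changes within sessions were -1.18 and -1.26. Top2a, the topoisomerase of dividing cells, fell from 665, 682, 486 and 445 to 209 to 401 (median 237), by 1.17 ± 0.17 (adjusted p = 1.1e-06). The endocytic receptor Lrp1 fell from 1872, 1770.0, 2763 and 2488 to 915 to 1241 (median 1022), by 1.09 ± 0.13 (adjusted p = 8.8e-09). The 12 largest falls chosen in the same way also held Fhdc1, of the formin family (-1.08, adjusted p = 0.0023), and Tnp2, a chromatin protein of spermatids (-1.02, adjusted p = 0.0012). They further held Ifitm3, an interferon-induced membrane protein (-0.99, adjusted p = 5.6e-08), the chemokine Cx3cl1 (-0.91, adjusted p = 6e-07) and the prostaglandin F receptor Ptgfr (-0.90, adjusted p = 1.4e-05). For Fhdc1 and Tnp2 the 4 d2 arrays themselves were spread, at 267, 272, 499 and 421 and at 249.5, 261, 606 and 303.

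Of 34 acute phase, cytokine and chemokine genes, 14 fell (41.2%) and 2 rose (5.88%), with a median of -0.25. The number of falls stayed between 12 and 15 when any of the 11 arrays was left out. Besides the genes above, the oncostatin M receptor Osmr fell by 0.89, the chemokines Ccl7 and Ccl9 by 0.60 and 0.56 and Cxcl1 by 0.51. The 2 that rose are also acute phase proteins made by the liver: orosomucoid, Orm1, rose by 1.01 ± 0.13 (adjusted p = 3.6e-08) and ceruloplasmin, Cp, by 0.92 ± 0.15 (adjusted p = 9.3e-06). Haptoglobin, Hp, at 494 ± 92.3 and 643 ± 205 (SD, n = 4 and 7), did not pass (adjusted p = 0.28). Matrix genes also fell in part. Of 35 matrix and matricellular genes outside the collagens 13 fell (37.1%) and 5 rose (14.3%), beside 21.6% and 15.3% of all genes. The list median was -0.22. Without d2 replicate 4 the rises were 2. Fibronectin, Fn1, fell from 4335, 3747, 5032 and 4447 to 2319 to 2769 (median 2577), by 0.79 ± 0.09 (adjusted p = 9.6e-09), and Fbln2, Ccn4 and Ltbp1 fell by 0.86, 0.82 and 0.79. Mgp, an inhibitor of calcification, and the laminin Lama4 rose by 1.24 and 0.98. Of 24 collagen genes and processing enzymes 3 rose (12.5%), among them Col6a3 (0.82) and the crosslinking enzyme Lox (0.68). Col1a1 and Col1a2 were within 0.01 of no change and did not pass, and the list median was -0.04. Of 28 matrix proteases and inhibitors 9 fell (32.1%), including the cathepsins Ctsl (-0.58) and Ctsb (-0.50), and 2 rose (7.14%).

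Most genes of dividing cells did not pass the test between the days, while 15.3% of all genes rose and 21.6% fell. Of 44 DNA replication genes 3 rose (6.82%), 6 fell (13.6%) and 35 did not pass, with a median of -0.06. The rises were 1 without d2 replicate 3 or 4 or d4 replicate 1, 2, 4 or 7, and the falls 3 and 2 without d2 replicate 3 and 4. Of 42 genes of mitosis 7 rose (16.7%), 5 fell (11.9%) and 30 did not pass, with a median of 0.03. Leaving out single arrays gave 3 (without d2 replicate 3 or 4 or d4 replicate 7) to 8 rises, and 1 (without d2 replicate 3) to 9 falls (without d4 replicate 3). In this list Top2a fell while Mki67 and Cks1b rose by 0.50 and 0.59. Several genes linked to arrest rose. Tob1, an antiproliferative protein, went from 311, 313, 258 and 265 to 881 to 1326 (median 933), a rise of 1.88 ± 0.14 (adjusted p = 3.2e-14). Mxd4, an antagonist of Myc, rose by 1.25 ± 0.22 (adjusted p = 2.7e-05), Ccng2 by 0.98 ± 0.17 (adjusted p = 1.9e-05) and the cyclin kinase inhibitor Cdkn1a by 0.85 ± 0.15 (adjusted p = 3.4e-05). Of the 26 genes of that list 8 rose (30.8%) and 6 fell (23.1%), the latter including Gas1 (-0.50), and the median was 0.02. Myc itself rose by 0.37 ± 0.11 (adjusted p = 0.0077), and Phlda1, a growth factor response gene, fell by 0.69 ± 0.17 (adjusted p = 0.0027). The smooth muscle actin Acta2 rose from 55.3, 62.2, 65.5 and 65.1 to 128 to 233 (median 148), by 1.40 ± 0.37 (adjusted p = 0.0044). Of the 33 actin and smooth muscle genes 8 rose (24.2%), among them vinculin, Vcl (0.82), and calponin 2, Cnn2 (0.77). The list median was 0.03.

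Markers of other cell types were measured alongside. None of 6 B lymphocyte, 7 macrophage, 5 endothelial, 5 skeletal muscle and 4 osteoblast or chondrocyte markers rose in limma, also at an unadjusted p under 0.05, and their list medians were -0.21, -0.28, -0.27, -0.31 and -0.21. Of these lists, in the same order, 1, 1, 3, 3 and 1 fell, beside 21.6% of all genes. When single arrays were left out these falls numbered 0 to 1, 0 to 3, 2 to 4, 1 to 4 and 0 to 1. Those of the muscle and osteoblast lists were least without d2 replicate 3, and those of the B lymphocyte and macrophage lists ended without d2 replicate 1, 2 or 4 or d4 replicate 2 or 7. Their summed intensities were 1497 to 1610 at day 2 and 1177 to 1601 at day 4 for B lymphocytes and 947 to 1068 and 689 to 983 for macrophages. They were 583 to 646 and 378 to 582 for endothelium, 1472 to 1649 and 1156 to 1524 for muscle and 830 to 1166 and 628 to 921 for osteoblasts or chondrocytes. Of 10 fibroblast markers, the summed intensity of which was 21410 to 25050 and then 19570 to 22290, 3 fell (Col3a1, Pdgfra and Fn1) and 7 did not pass. The brown fat gene Ucp1 (-0.08) did not pass, and of 8 brown fat genes 0 rose in limma, also at an unadjusted p under 0.05.

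**Figure D3:**
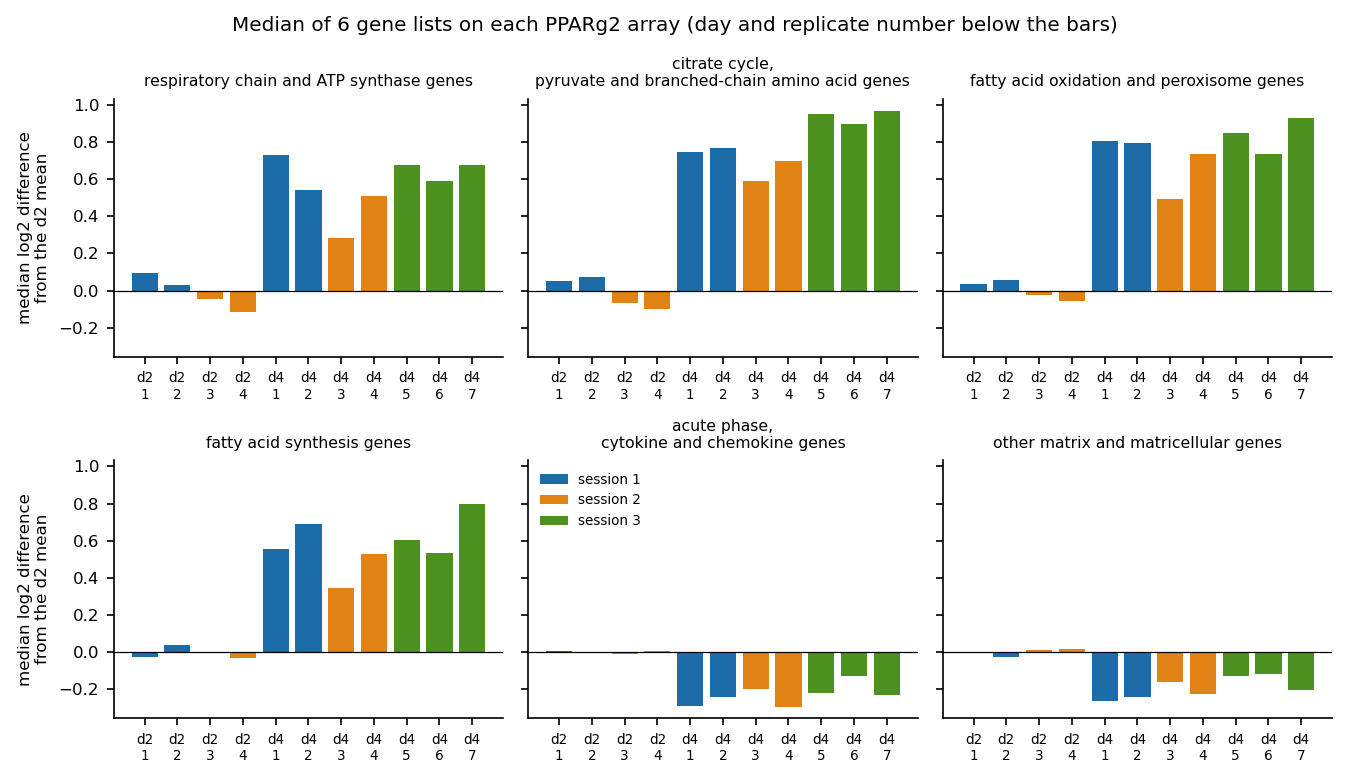
Median log2 intensity of 6 gene lists on each PPARg d2 and d4 array, relative to the mean of the d2 arrays, coloured by session of the array files. For the citrate cycle list the d2 arrays sit between -0.10 and 0.07 and the d4 arrays between 0.59 and 0.97, with the lowest d4 values in session 2 and the highest in session 3.

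The lipid and mitochondrial lists stood apart between the days in sessions 1 and 2. The median of the citrate cycle list, relative to the d2 mean, was 0.75 to 0.77 on the d4 arrays of session 1, 0.59 to 0.70 in session 2 and 0.90 to 0.97 in session 3. Session 2 held the lowest d4 array in each of the lists of lipid storage, fatty acid oxidation, the citrate cycle and the respiratory chain. Tested within session 1 alone (2 arrays a day), 23 of the 32 fatty acid oxidation genes and 26 of the 35 citrate cycle genes rose. Within session 2 alone it was 16 and 18. Of 56 respiratory chain genes 31 rose in session 1 and 10 in session 2. For 63 mitochondrial ribosome and import genes it was 25 and 10. For 25 lipid storage genes it was 15 and 10, and for 13 fatty acid synthesis genes 7 and 3. Over all probe sets, 1031 of 10656 rose in session 1 and 320 of 10692 in session 2. All 162 probe sets that rose at least 2-fold in the pooled comparison had the same direction within sessions 1 and 2, with 160 and 143 past the test there. These arrays are part of those that chose them. Among the d4 arrays alone, those of session 3 differed from those of sessions 1 and 2 at 307 of 10863 probe sets (2.83%), 201 higher and 106 lower in session 3. Mean absolute log2 differences between pairs of d4 arrays ran from 0.11 to 0.27 within sessions and from 0.13 to 0.33 across them, against 0.10 to 0.13 and 0.14 to 0.16 at day 2.

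Vector and EBF1 cells were sampled on the same days. From day 2 to day 4, 932 probe sets (8.58%) passed the test in vector cells, 550 higher and 382 lower, and 1810 (16.7%) in EBF1 cells, 1087 higher and 723 lower. Of the 1540 probe sets that rose in PPARg2 cells, 437 also rose in vector cells (28.4%, and 79.5% of the rises there) and 777 in EBF1 cells (50.5% and 71.5%). Of the 2350 that fell, 259 also fell in vector cells (11.02%, and 67.8% of the falls there) and 262 in EBF1 cells (11.15% and 36.2%). Of the 162 probe sets that rose at least 2-fold in PPARg2 cells, 161 also changed upward in vector cells and 161 in EBF1 cells, with median changes of 1.26 in PPARg2, 0.76 in vector and 1.27 in EBF1 cells. Adipoq changed by 3.98 in vector cells, from 58.4 ± 16.6 to 964 ± 184, and by 5.50 in EBF1 cells, from 88.3 ± 16.2 to 3975 ± 566 (SD, n = 4 and 7). Across 4939 genes with a mean above the pooled median, the change in PPARg2 cells correlated with that in vector cells at r = 0.80 and with that in EBF1 cells at r = 0.69. This is a description across genes, which are not independent replicates. The arrays of the inserts are separate but share days and sessions. The medians of 4 lists were lowest in vector cells. They were 0.37 in vector and 0.89 in EBF1 cells for fatty acid oxidation (0.79 in PPARg2) and 0.28 and 0.72 for the respiratory chain (0.58). They were 0.38 and 0.85 for the citrate cycle (0.81) and 0.20 and 0.67 for lipid storage (0.58). Over all genes the medians were -0.02 in vector and 0.01 in EBF1 cells.

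**Figure D4:**
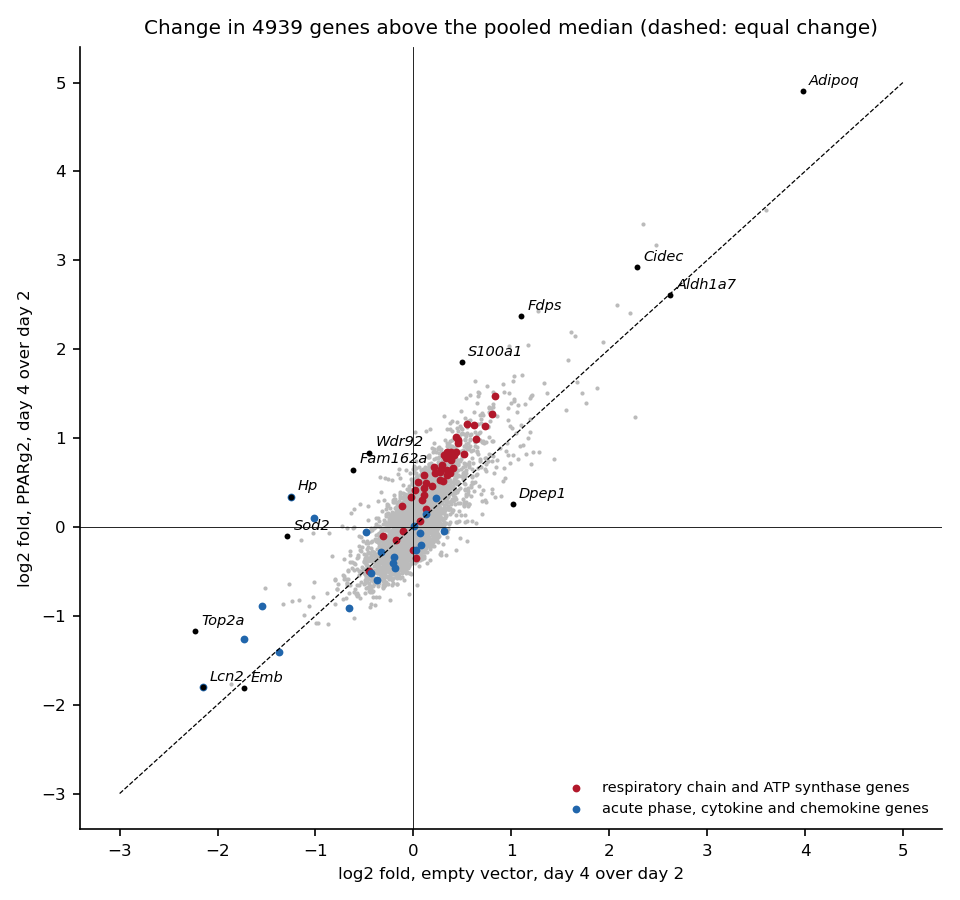
Log2 change from day 2 to day 4 in vector cells (x axis) and in PPARg2 cells (y axis) for 4939 genes with a mean intensity above 158, with the genes of the respiratory chain and of the acute phase list marked. Points lie along a rising cloud (r = 0.80), with Adipoq at 3.98 and 4.91.

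Tested gene by gene, the change in PPARg2 cells differed from that in vector cells at 35 of 10863 probe sets (0.322%), 31 higher and 4 lower, while 1133 had an unadjusted p under 0.05. Leaving out d2 replicate 4 of the PPARg2 cells brought this to 11 and leaving out d4 replicate 7 to 21. Without vector d2 replicate 1, 2 or 3 it was 12, 18 or 21, and without vector d2 replicate 4 it was 151. With session as a block it was 119, the 35 among them, and in session 1 alone it was 257. Of the respiratory chain, citrate cycle and cholesterol lists 0 genes were among the 35 in limma, while 20 of 56, 18 of 35 and 8 of 16 had an unadjusted p under 0.05. With session as a block 0, 2 and 5 of these lists passed. The glycolysis and hypoxia list held 4 of the 35, all higher in PPARg2 cells (13 of 28 at an unadjusted p under 0.05, and 9 passed with session as a block), and the acute phase list 2. Of the fatty acid synthesis genes Fasn was among the 35. It went from 563 ± 70 to 865 ± 112 in vector cells (SD, n = 4 and 7), a difference between the changes of 0.68 ± 0.15 (adjusted p = 0.021). Dnajb9, at 142 ± 26.1 and 143 ± 27.7 in vector cells, and Aldoa differed by 1.05 ± 0.22 (adjusted p = 0.017) and 0.46 ± 0.11 (adjusted p = 0.042). S100a1, a calcium-binding protein, did not exceed the floor on any d2 array of PPARg2 or vector cells. At day 4 it read 133 to 247 (median 213) in PPARg2 cells (at least 3.62-fold higher) and 78.3 ± 22.8 in vector cells (SD, n = 7). The changes differed by 1.36 ± 0.30 above the floor (adjusted p = 0.027).

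In other genes of this set the vector cells fell and the PPARg2 cells did not pass the test between the days. Hp went from 1940.5 ± 1255 to 705 ± 215 in vector cells, and the changes differed by 1.59 ± 0.36 (adjusted p = 0.029). Sod2, the mitochondrial superoxide dismutase, went from 711 ± 210.3 to 286 ± 55.7 in vector cells and from 415 ± 35.2 to 391 ± 74.6 in PPARg2 cells, a difference of 1.18 ± 0.25 (adjusted p = 0.017). Top2a fell in all 3 kinds of cells but by less in PPARg2 cells. Its day 2 level was 569.6 ± 122 there, 1256 ± 177 in vector and 1371 ± 112 in EBF1 cells. The differences were 1.06 ± 0.24 from vector (adjusted p = 0.03) and 1.61 ± 0.24 from EBF1 (adjusted p = 1.7e-05). Wdr92 and Fam162a, a mitochondrial protein induced by hypoxia, rose in PPARg2 cells by 0.84 and 0.65 and changed by -0.45 and -0.62 in vector cells. The differences were 1.29 ± 0.29 (adjusted p = 0.027) and 1.26 ± 0.24 (adjusted p = 0.0063). The dipeptidase Dpep1 lay the other way, with 1.01 in vector and 0.25 in PPARg2 cells, a difference of -0.76 ± 0.16 (adjusted p = 0.017).

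**Figure D5:**
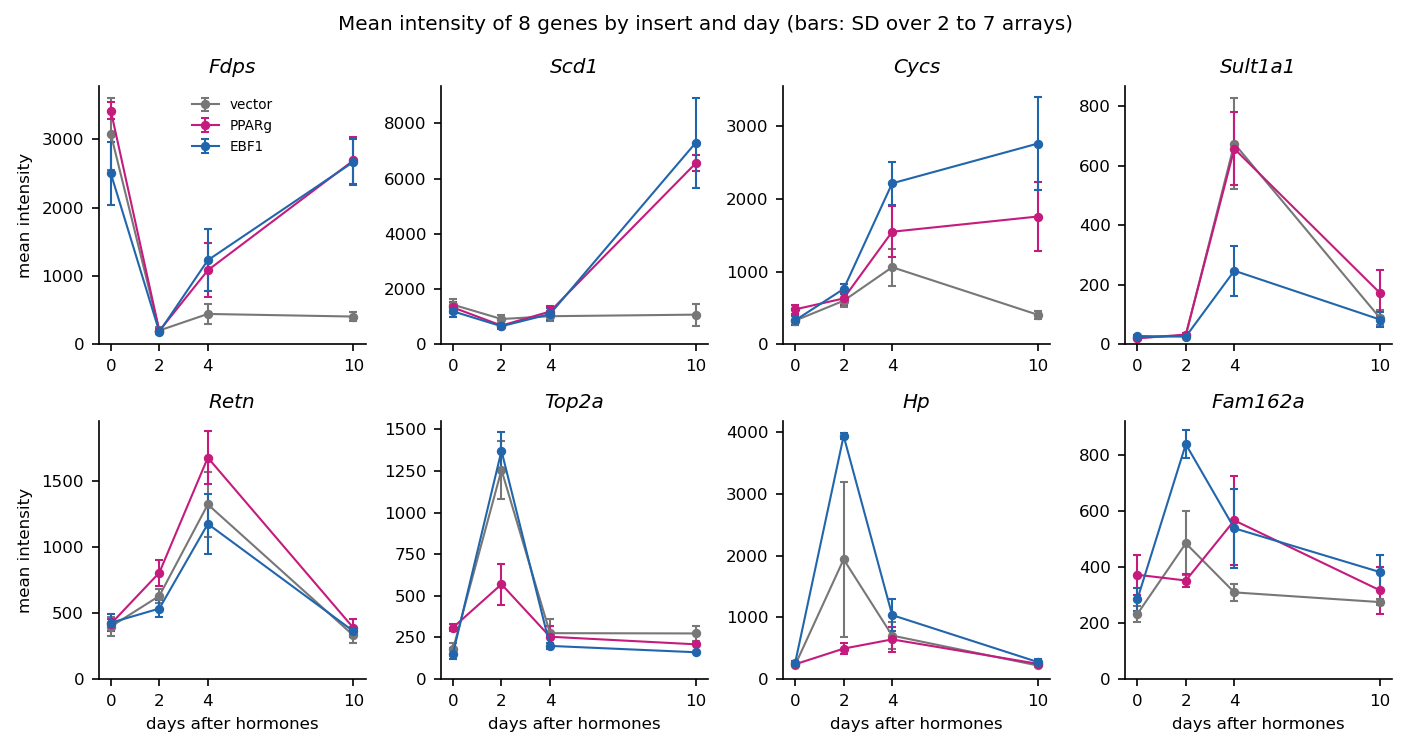
Mean intensity of 8 genes at day 0, 2, 4 and 10 in vector, PPARg2 and EBF1 cells, with SD over 2 to 7 arrays. Fdps falls from 3424 at day 0 to 196 at day 2 and stands at 1084 at day 4 in PPARg2 cells, and Hp at day 2 stands at 494 in PPARg2, 1940 in vector and 3939 in EBF1 cells. All d10 arrays of PPARg2 cells lie in session 3.

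The change in PPARg2 cells differed from that in EBF1 cells at 341 probe sets (3.14%), 248 higher and 93 lower. Without EBF1 d2 replicate 2 it was 214 (166 higher and 48 lower), and with session as a block it was 608 (400 and 208), the 341 among them. The number lower was least without EBF1 d2 replicate 3, at 41. Both differences use the same PPARg2 arrays. The genes with the largest differences fell from a high day 2 level in EBF1 cells. Ptx3, a pentraxin of innate immunity, went from 1715 ± 256 to 309 ± 116 in EBF1 cells and from 158 ± 9.16 to 176 ± 55.7 in PPARg2 cells, a difference of 2.64 ± 0.42 (adjusted p = 4.3e-05). Hp went from 3939 ± 55 to 1037 ± 261 in EBF1 cells, a difference of 2.31 ± 0.36 (adjusted p = 3.5e-05). Gas6, a ligand of Axl and related receptors, went from 1932 ± 136 to 657 ± 145 in EBF1 cells, a difference of 1.79 ± 0.27 (adjusted p = 2.7e-05). In PPARg2 cells none of these 3 passed the test between the days. Fmr1, an RNA-binding protein, and protein S, Pros1, changed by -1.84 and -1.27 in EBF1 cells, with differences of 1.77 ± 0.27 (adjusted p = 1.7e-05) and 1.76 ± 0.30 (adjusted p = 0.00015).

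Genes that rose more in EBF1 cells include Impdh1, an enzyme of guanine nucleotide synthesis, with 0.50 in PPARg2 and 1.85 in EBF1 cells (difference -1.35 ± 0.20, adjusted p = 1.1e-05). The growth factor pleiotrophin, Ptn, changed by 0.07 and 1.40 (difference -1.33 ± 0.37, adjusted p = 0.032). Serpinf1, pigment epithelium-derived factor, changed by 0.71 and 1.91 (difference -1.20 ± 0.26, adjusted p = 0.0039); a second Serpinf1 probe set fell in PPARg2 cells by 0.37 (adjusted p = 0.037). Pdk4 fell in PPARg2 cells and changed by 0.33 in EBF1 cells (difference -1.08 ± 0.29, adjusted p = 0.024). Nabp1, a single-strand DNA binding protein that did not exceed the floor on any PPARg d2 array, differed by -1.04 ± 0.29 (adjusted p = 0.032). Lpl changed by 1.51 in PPARg2 and 2.25 in EBF1 cells, from 1471 ± 93.6 and 861 ± 136 at day 2, a difference of -0.75 ± 0.16 (adjusted p = 0.0038). Sult1a1 and Pqlc3 rose more in PPARg2 cells, by differences of 1.48 ± 0.28 (adjusted p = 0.00066, with Sult1a1 at the floor on the PPARg d2 arrays) and 1.13 ± 0.18 (adjusted p = 7.3e-05). By list, 15 of 28 glycolysis and hypoxia genes changed more upward in PPARg2 than in EBF1 cells, where the list median was -0.15. So did 8 of 33 glucocorticoid and cAMP response genes, 7 of 34 acute phase genes and 5 of 24 collagen genes, beside 248 of all 10863 probe sets. The glucocorticoid and acute phase lists share Lcn2, Saa3, Orm1 and Cp, so their counts are not independent. The acute phase list also held 2 genes that changed more downward. Of the respiratory chain and mitochondrial ribosome lists 0 genes passed this test in limma. An unadjusted p under 0.05 was found for 4 of 56 and 5 of 63 of them, beside 2624 of all 10863 probe sets.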

How the data were processed

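The authors deposited 1 intensity per probe set and array on a linear scale, for 12488 probe sets on 53 arrays; the algorithm and scaling behind it are not given in the sources used here. Array means ran from 309 to 370. Groups, insert by day, came from the array titles. Intensities below the pooled 20th percentile (54.5) were set to it and log2 was taken. limma 3.58.1 in R 4.3.3 fitted a mean for each of 12 groups over all 53 arrays, with contrasts and empirical Bayes moderation with an intensity trend, after a check on simulated data. P-values, two-sided, were adjusted by Benjamini-Hochberg over 10863 probe sets, with a threshold of 0.05; 66 control probe sets and 1559 never above the floor were left out. With 4 and 7 arrays, their number limits the precision.

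GEO's platform annotation paired 10855 probe sets with a single symbol (10839 checked by Entrez identifier against RefSeq, GRCm38.p6), 396 with several and 1171 with none. Where a gene had several probe sets, the brightest over all arrays (mean log2) stood for it. Cfd and Plin1 have no named probe set used here. Sessions are runs of dates in the array files with gaps over 21 days. The gene lists and the genes named were chosen with earlier results of these data known. Named were the 12 largest rises and falls past the test without overlap between arrays and with a higher mean above the pooled median, up to 4 genes a list and direction, the largest differences between inserts, and a panel of adipogenesis genes; other list members are named as examples chosen after their values were seen. Alternatives were quantile normalization, other floors and filters, fits of the groups compared, sessions, a replicate block and leaving out arrays. Figures used Python 3.11.15 and matplotlib 3.10.9.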

Additional observations from a re-analysis of the deposited data

Results flagged for a closer look

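Single arrays far from the others of their group were looked for in 227 groups of arrays over the 115 genes given with full statistics, and 5 were found; chance marks about 1 in 20 groups. Aldh1a7 stood at 1074 on d4 replicate 3, below the other d4 arrays, and Pqlc3 at 75 and Fasn at 495 on d2 replicate 4, below the other d2 arrays. On d4 replicate 7, Top2a stood at 400.6 and Gas6 at 1132, above the other d4 arrays. Leaving out any 1 array ended the call of none of these 3 genes with a called change (Aldh1a7, Pqlc3 and Fasn) nor that of Top2a.

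Differences between the change in PPARg2 cells and that in vector cells passed the limma test of the difference, on the log2 scale, for Top2a (1.06), Fasn (0.68), Hp (1.59), S100a1 (1.36), Wdr92 (1.29), Fam162a (1.26), Sod2 (1.18), Dnajb9 (1.05), Aldoa (0.46) and Dpep1 (-0.76). Against EBF1 cells, the change was more upward in PPARg2 cells for Ptx3 (2.64), Hp (2.31), Gas6 (1.79), Fmr1 (1.78), Pros1 (1.76), Top2a (1.61), Serpina3n (1.59), Sult1a1 (1.48), Phlda1 (1.46), Fam162a (1.33), Wdr92 (1.18), Pqlc3 (1.13), Sgk1 (1.02), Bnip3 (0.82), Ltbp1 (0.74), Ctsl (0.73) and Nampt (0.46). It was more downward for Impdh1 (-1.35), Ptn (-1.33), Serpinf1 (-1.20), Pdk4 (-1.08), Nabp1 (-1.04), Mgst3 (-0.88), Cx3cl1 (-0.84), Lpl (-0.75) and Tob1 (-0.73). The differences from vector and from EBF1 cells share the PPARg2 arrays.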

How the results depend on the processing

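Counts depended on the arrays used, and some folds did too, as given above for Pparg, Pdk4 and Lcn2 within sessions. The count of changed probe sets (3890) was 1994 in session 1 alone and 398 in session 2 alone, which have fewer arrays, and between 2067 (without d2 replicate 4) and 4630 (without d4 replicate 3) when 1 array was left out; without d4 replicate 7 it was 2568. The share of rises among them, 39.6%, was 43.3% after quantile normalization, 51.1% with the stricter filter on dim probe sets, 48.5% with session as a block, 51.7% in session 1 and 80.4% in session 2. Rises of at least 2-fold numbered 112 (session 2) to 194 (without d4 replicate 3) and falls 12 to 25, against 162 and 15. The difference from vector cells (35) was 71 after quantile normalization, 69 with the floor at the 40th percentile, 119 with session as a block, 257 in session 1 and 2 in session 2, and 11 (without d2 replicate 4) to 48 when a PPARg2 array was left out. Leaving out vector arrays, an alternative chosen after seeing the data, gave 12 to 151. The difference from EBF1 cells (341) was 636 in a fit of the groups compared, 608 with session as a block and 29 in session 2, and 242 to 401 when a PPARg2 array was left out; leaving out EBF1 arrays, also chosen after seeing the data, gave 214 (without EBF1 d2 replicate 2) to 410. The causes were not tested.

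Replicate numbers matched the days only in part: deviations of same-numbered d2 and d4 arrays correlated at 0.43, 0.19, -0.03 and -0.06. Of the d2 arrays, replicates 1 and 2 correlated most with the d4 replicate of the same number. D2 replicate 3 correlated most with d4 replicate 4 (0.17), and d2 replicate 4 with d4 replicate 3 (0.50). With the replicate block (replicates 1 to 4) 5742 probe sets passed, 1828 differed from vector and 2367 from EBF1 cells. Of 115 genes given with full statistics, 102 passed, and 0 reversed under any alternative run. Calls lost numbered 10 in session 1, 24 in session 2, 3 with the floor at the 40th percentile (Nabp1, Acta2 and Phlda1), 2 in sessions 1 and 2 together and 1 with session as a block; leaving out single arrays ended those of Angptl4, Cebpd and Lep. The stricter filter left 0 endothelial markers, so that list has no median there.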
